A study of Mus musculus with 27 samples.

Results

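A set of 10 genes of iron handling was followed in mouse liver over a reproductive cycle: the hepcidin genes Hamp and Hamp2, the transferrin receptor genes Tfrc and Tfr2, the transferrin gene Trf, the ferritin genes Fth1 and Ftl1, the heme oxygenase gene Hmox1, the ligand gene Bmp6 and the target gene Id1. They were taken by name from the 51826 gene identifiers of the deposited tables, and each symbol matched 1 identifier. All 10 passed the filter on low counts, as did 16428 genes in all. Whole livers of wild-type BALB/c mice, an inbred laboratory strain, were profiled by bulk RNA sequencing in 27 libraries. The nulliparous mice (NUL, 4 libraries) had not been pregnant. The mice of every other group were bred at 10 to 12 weeks of age and nursed litters of even size. They were taken at lactation day 10 (LAC, 3 libraries), at days 2, 4, 6 and 8 after weaning, called involution days in the labels (ID2, 3; ID4, 4; ID6, 6; ID8, 3), or 4 weeks after weaning, called regressed (REG, 4). Litters were removed after 10 to 14 days of nursing, and animals were age matched. No group carried a transgene, a deletion or a drug. Titles number the libraries without stating what a number marks, so p-values measure the spread between these libraries.

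Hepcidin is a peptide hormone made by hepatocytes. It binds ferroportin, the only known cellular iron exporter, and causes its removal from the cell surface, so that less iron enters the blood from the gut, macrophages and liver. Its transcription in hepatocytes is driven by bone morphogenetic proteins (BMPs) from the sinusoidal endothelium, which signal through SMAD proteins, and by interleukin 6, which signals through STAT3. The mouse genome has another copy, Hamp2, next to Hamp. Within cells, iron regulatory proteins bind hairpins called iron-responsive elements when iron is scarce: bound in a 5′ untranslated region they block translation, and bound in the 3′ untranslated region of Tfrc they protect the transcript.

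The hepcidin promoters are shown because the 2 copies are alike in sequence and their transcript ratio differed among stages, as given below. Both genes lie on the minus strand of chromosome 7. In RefSeq on GRCm38.p6, 7 of the 10 genes had a promoter entry, with 11 windows between them. The stretches below run 5′ to 3′ on the gene's strand, chr7:30944064-30944158 for Hamp (129 to 35 bases before the start) and chr7:30924213-30924307 for Hamp2 (126 to 32 bases before the start). Starts are those of RefSeq. In the GENCODE M21 annotation the Hamp2 gene extends to chr7:30924681, so the printed Hamp2 stretch lies inside that gene. The Hamp2 promoter comparison therefore depends on the RefSeq start. Capitals mark a BMP-response hexamer position and a STAT site known from the hepcidin promoter.
Hamp: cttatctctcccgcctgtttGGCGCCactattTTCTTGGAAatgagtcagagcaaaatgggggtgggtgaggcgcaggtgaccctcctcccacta
Hamp2: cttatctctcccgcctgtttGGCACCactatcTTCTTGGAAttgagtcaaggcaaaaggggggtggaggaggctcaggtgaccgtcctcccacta
Counted from the first base of the hexamer, Hamp2 differed from Hamp by G4A. The STAT site letters were the same in both. Over the 250 bases before the start the 2 promoters were 89.7% identical. Among all 32851 promoter windows, 9.59% held the letters GGCGCC, which read the same on both strands, and 0.365% held TTCTTGGAA on either strand. The motifs do not overlap in either promoter. Of the other members with an entry, 1 Tfrc window also held GGCGCC, 89 bases before its start.

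The ferritin, Tfrc and ferroportin transcripts carry iron-responsive elements, shown because these genes share a control by iron that acts after transcription. GENCODE M21 transcripts (GRCm38) were searched for a C, 5 stem bases, the loop CAGTGN and 5 bases that pair with the stem, G with T allowed. Of 21901 protein-coding genes, 1.34% had such a match anywhere in a transcript. Capitals mark the loop. The Fth1, Ftl1 and Slc40a1 matches lie in 5′ untranslated exon sequence and the 4 Tfrc matches in the 3′ untranslated region. So strict a pattern can miss elements, and the matches need not be all that these transcripts carry. Fth1 was at chr19:9982738-9982754 (plus strand), Ftl1 at chr7:45459785-45459801 (minus) and Slc40a1 at chr1:45925471-45925487 (minus).
Fth1: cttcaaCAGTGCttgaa
Ftl1: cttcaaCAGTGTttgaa
Slc40a1: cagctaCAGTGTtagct
The Tfrc matches were at chr16:32631225-32631241, chr16:32631604-32631620, chr16:32631669-32631685 and chr16:32631716-32631732 on the plus strand, in this order. The letters A to D below give only that order and are not established element names.
Tfrc element A: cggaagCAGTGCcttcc
Tfrc element B: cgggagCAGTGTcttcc
Tfrc element C: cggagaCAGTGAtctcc
Tfrc element D: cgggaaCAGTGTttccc

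Libraries held 41120650 to 75664540 estimated reads. Values below are read counts normalised to library size (CPM), which compare 1 gene between libraries, unless TPM, a value also scaled by transcript length, is named. Hepatocyte markers were abundant in every library: 6 markers, among them Alb (albumin) and Ttr (transthyretin), summed to between 87720 and 222900 CPM, with the highest sums in LAC. Exocrine pancreas markers summed to 1535 CPM in ID2_31 and 110 CPM in ID4_15, against 6.13 to 42.4 CPM elsewhere. Clock genes differed at ID2, where 5 of 11 were called against NUL (3.24% of all genes). Other comparisons held clock calls too. Among them were Clock, Arntl and Dbp from LAC to ID2 (16.1% of all genes) and Ciart from ID2 to ID4 (1.49%). All 7 libraries numbered under 200 belong to ID8 (3 of 3), ID2 (2 of 3) and ID4 (2 of 4), so number range and stage cannot be told apart for ID8. The part of clock phase in the results below was not tested. For pancreatic RNA, values without the library are given where it touches a result. With title number as a covariate the number of the 10 genes called fell from 1 to 0 for ID2 against NUL and stayed the same in the other comparisons.

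Per length, Trf, the plasma iron carrier, was the most abundant of the 10, with a median of 21460 TPM over the 27 libraries. Hamp followed at 7950 TPM, Ftl1 at 6261, Hamp2 at 2475 and Fth1 at 1810. Tfr2 stood at 178.6 TPM, Hmox1 at 23.8, Tfrc at 14.7 and Id1 at 11.1. Bmp6, whose product is made mainly outside hepatocytes, was lowest at 1.42 TPM.

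Of the 10 genes, 8 (all but Bmp6 and Id1) differed among stages in a joint test by edgeR at a Benjamini-Hochberg adjusted p under 0.05, where 27% of all genes did. At LAC against NUL, 4 of 10 were called, with a background of 11.2%: Tfrc, Fth1 and Ftl1 rose and Hamp fell. At ID2 against NUL, Ftl1 fell (1 of 10, background 3.24%), where DESeq2 called 3 and limma on log2 TPM 2, and 4 other settings 0. At ID4 against NUL, Hamp fell (1 of 10, background 4.25%), where DESeq2 called 5 and limma 3, and none was called with Hamp and Hamp2 summed. Between LAC and ID2, Hamp rose and Ftl1 fell (2 of 10, background 16.1%). Between ID4 and ID6, Hamp rose and Tfr2 fell (2 of 10, background 8.53%).

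In the other 6 comparisons edgeR called 0 of 10. Of all genes, the share called at that adjusted threshold was 1.08% for ID6 against NUL, 0.499% for ID8 against NUL, 0.0852% for REG against NUL, 1.49% for ID4 against ID2, 4.12% for ID8 against ID6 and 0.0487% for REG against ID8. At an unadjusted p under 0.05, where the share of all genes is larger, edgeR had 4 of the 10 for ID6 against NUL (11.9% of all genes), 2 for ID8 against NUL (12.8%) and 2 for REG against NUL (7.17%). It had 1 each for ID4 against ID2 (13.9%), ID8 against ID6 (20.5%) and REG against ID8 (9.02%). DESeq2 called 1 gene in ID8 against NUL and 1 in REG against NUL, Hamp2 in both, and 1 in REG against ID8, Hmox1. Limma on log2 TPM called 1 gene in each of REG against NUL, ID8 against ID6 and REG against ID8. The median log2 fold change over the 10 genes lay between -0.105 and 0.136 across the 11 comparisons, and over all genes tested between -0.017 and 0.015.

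**Figure D1:**
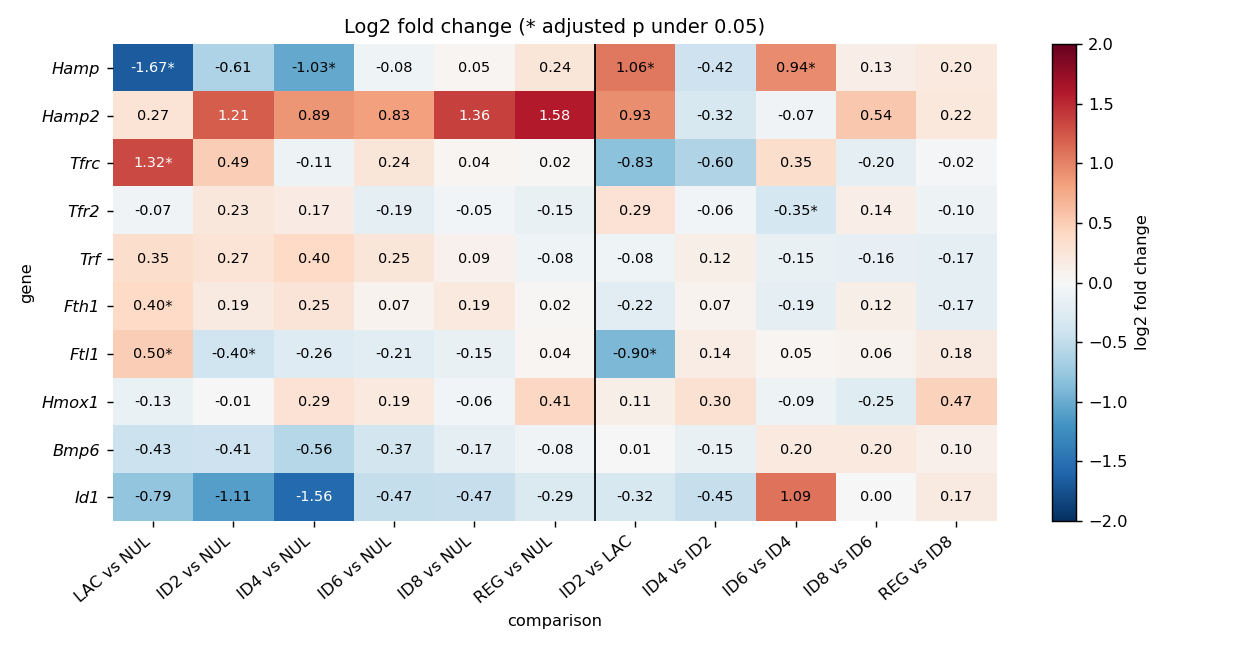
Log2 fold changes of the 10 genes (rows) in the 11 comparisons (columns), from the edgeR fit; the vertical line parts comparisons with NUL from comparisons with the stage before. Stars mark an adjusted p under 0.05. The Hamp row holds 4 starred cells, and the Hamp2 row holds none although its values against NUL run from 0.27 to 1.58.

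Hamp (ENSMUSG00000050440, chr7:30942368-30944032), the main hepcidin gene, fell in lactation to a fold of 0.314 of the NUL level, was still low at ID4 (fold 0.49), and overlapped the NUL range from ID6 on. In NUL it gave 1022, 1071, 1094 and 1247 CPM. In LAC it gave 237, 279 and 529 CPM. The libraries of the 2 groups did not overlap, and the log2 fold change was -1.67 (SE 0.21, n = 3 and 4, adjusted p 2.12e-05 by edgeR). In bulk liver, fewer cells of a type and less RNA per cell cannot be told apart. The highest LAC value came from LAC_213, and without that library the change was -2.10. The change stayed called without any single library of these groups. Of the 6 hepatocyte markers, edgeR called 1 higher and 1 lower in LAC (median 0.03): Alb at 0.98 (adjusted p 5.48e-05) and Cyp2e1, a cytochrome P450 gene, at -1.49 (adjusted p 2.57e-05).

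After weaning Hamp rose from LAC to ID2 and again from ID4 to ID6. At ID2 it gave 563, 749 and 863 CPM, all above the LAC libraries and all below the NUL ones. The difference from LAC was 1.06 (SE 0.22, adjusted p 0.00213 by edgeR), and the difference from NUL did not pass the test (-0.61, adjusted p 0.108). When only the LAC and ID2 libraries were fitted, the rise from LAC was no longer called (adjusted p 0.119). It held without any single library, ID2_31 with its pancreatic RNA included (largest adjusted p 0.0156 by edgeR).

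At ID4 the Hamp libraries gave 388, 517, 592 and 678 CPM. They overlapped the ID2 libraries, and the step from ID2 did not pass the test (-0.42, adjusted p 0.362 by edgeR). All 4 lay below the lowest NUL library, and Hamp was lower than in NUL, at -1.03 on the log2 scale (SE 0.19, adjusted p 0.00194 by edgeR). The call held without any single library, ID4_15 included, with a largest adjusted p of 0.01.

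At ID6 the lowest, median and highest of the 6 libraries were 910, 1018 and 1249 CPM, so that no ID6 library overlapped an ID4 one. Hamp rose between ID4 and ID6 by 0.94 on the log2 scale (SE 0.18, adjusted p 0.00187 by edgeR). ID8 gave 1044, 1154 and 1236 CPM, and REG gave 1110, 1263, 1407 and 1472 CPM. These ranges overlapped NUL, and the differences from NUL were 0.05 at ID8 (95% interval -0.35 to 0.45) and 0.24 at REG (95% interval -0.13 to 0.61). Ordered by mean CPM, the stages ran LAC, ID4, ID2, ID6, NUL, ID8 and REG. Among neighbours in that order, the libraries of ID2 and ID6 did not overlap, and all other neighbours did.

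**Figure D2:**
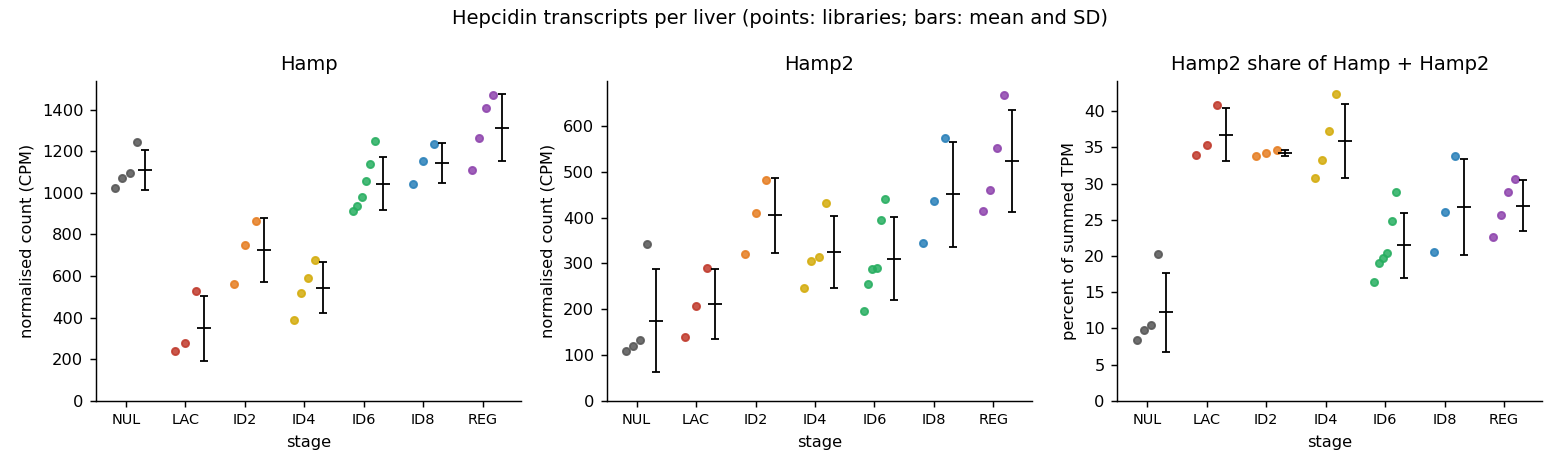
Normalised counts (CPM) of Hamp and Hamp2 and the Hamp2 share of their summed TPM (percent) at the 7 stages; points are libraries, sorted by value within a stage, and bars are the mean and SD. Hamp is lowest in LAC (237 to 529 CPM), whereas the Hamp2 share is lowest in NUL (8.39% to 20.3%).

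Hamp2 (ENSMUSG00000056978, chr7:30922372-30924681), the neighbouring copy, followed another course. It gave 108, 118, 133 and 342 CPM in NUL, where the value of 342 CPM came from NUL_220. It gave 138, 206 and 290 CPM in LAC, within the NUL range, and 321, 411 and 482 CPM at ID2. At ID4 it gave 246, 306, 315 and 432 CPM. At ID6 the lowest, median and highest values were 197, 288 and 440 CPM. It gave 344, 435 and 573 CPM at ID8 and 413, 461, 551 and 668 CPM in REG. All ID8 and REG libraries lay above all NUL libraries.

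The joint test called Hamp2 (adjusted p 0.0128 by edgeR), but no single comparison was called by edgeR. DESeq2 called Hamp2 higher than NUL at ID2, at ID8 and in REG (adjusted p 0.0322, 0.029 and 0.00515), and limma on log2(TPM + 1) at ID2 and in REG (adjusted p 0.0327 and 0.0136). By edgeR the largest differences from NUL were 1.58 in REG (SE 0.34, adjusted p 0.0727 by edgeR), 1.36 at ID8 (SE 0.36, adjusted p 0.0902) and 1.21 at ID2 (SE 0.36, adjusted p 0.0667). NUL_220 decided these calls. Without it Hamp2 was called higher than NUL in REG (2.13, adjusted p 0.00212 by edgeR), at ID8 (1.91, adjusted p 0.00346), at ID2 (1.76, adjusted p 0.00192), at ID4 (1.44, adjusted p 0.00513) and at ID6 (1.38, adjusted p 0.0135). In LAC it was not (0.82, adjusted p 0.082). NUL_220 is also the 1 NUL library sequenced in 1 run, the other 3 having 2, and 3 of 4 REG and 2 of 3 ID8 libraries had 1 run. With the number of runs in the fit, the differences from NUL were 1.57 in REG, 1.36 at ID8 and 1.199 at ID2 (adjusted p 0.148, 0.116 and 0.0975 by edgeR), and the joint test gave an adjusted p of 0.0247.

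The balance of the 2 hepcidin transcripts was compared as the Hamp2 share of their summed TPM, a measure chosen after the data were seen. The share was 12.2% ± 5.47 (SD, n = 4) in NUL, with single values of 8.39%, 9.8%, 10.4% and, in NUL_220, 20.3%. It was 36.7% ± 3.64 (n = 3) in LAC, 34.3% ± 0.452 (n = 3) at ID2 and 35.9% ± 5.05 (n = 4) at ID4. It then stood at 21.5% ± 4.49 (n = 6) at ID6, 26.8% ± 6.62 (n = 3) at ID8 and 27.01% ± 3.58 (n = 4) in REG. The LAC, ID2, ID4, ID8 and REG libraries all lay above all NUL ones.

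The log2 ratio of Hamp2 to Hamp differed among the 7 stages (permutation test of the F statistic, F = 14.3, p = 4e-05 with 100000 resamples, n = 27). In exact two-sided permutation tests against NUL, each of the 6 stages gave an adjusted p of 0.0571, with differences of 1.04 at ID6 to 2.15 in LAC on the log2 scale. The unadjusted p ran from 0.019 at ID6 to 0.0571 in LAC, at ID2 and at ID8. LAC, ID2 and ID8 had 35 arrangements each against NUL, so p could move only in coarse steps. Every library of these stages lay above every NUL one, so the adjusted p of 0.0571 does not decide whether single stages differed. Without NUL_220 the F statistic was 24.5.

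Hamp and Hamp2 are 92.4% identical over their aligned reference transcripts, with the longest identical run at 87 bases, so their reads can be shared. Their estimated counts were fractional in 1 library each. How reads were divided between them cannot be checked from the tables, and each value above depends on that division. With the 2 genes summed, the fall of Hamp at LAC, the rise at ID2 and the rise at ID6 stayed called. The difference between ID4 and NUL did not (-0.56, adjusted p 0.0795 by edgeR).

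Bmp6 and Id1 stand upstream and downstream of the BMP receptor: BMP6 is the main iron-responsive ligand of hepcidin, and Id1, which encodes an inhibitor of basic helix-loop-helix factors, is a classical SMAD target. Neither passed the joint test by edgeR (adjusted p 0.126 and 0.129).

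Bmp6 (ENSMUSG00000039004) gave 2.99, 3.04, 3.08 and 3.75 CPM in NUL. It gave 2.18, 2.41 and 2.58 CPM in LAC, below every NUL library, with a difference of -0.43 (SE 0.20, adjusted p 0.194 by edgeR). At ID4 it gave 1.67, 1.92, 2.53 and 2.58 CPM, again below every NUL library, at -0.56 (SE 0.19, adjusted p 0.0785). The 6 ID6 libraries (2.03 to 2.94 CPM) also lay below NUL, at -0.37 (SE 0.17, adjusted p 0.371). ID2, ID8 and REG overlapped NUL. Sinusoidal endothelial markers, 8 genes of the cells that make BMP6, summed to 258 to 311 CPM in LAC against 336 to 389 CPM in NUL, and to 335 to 412 CPM at ID4; their part in the Bmp6 values was not tested.

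Id1 (ENSMUSG00000042745) gave 6.30, 6.52, 11.4 and 15.04 CPM in NUL. In LAC it gave 2.05, 3.20 and 11.7 CPM, with the high value in LAC_213, the library that was also highest for Hamp in that group. At ID2 it gave 3.24, 4.25 and 6.11 CPM, and at ID4 2.94, 3.06, 3.62 and 3.68 CPM. Both involution groups lay below all NUL libraries, ID4 by -1.56 on the log2 scale (SE 0.45, adjusted p 0.0534 by edgeR) and ID2 by -1.11 (SE 0.49, adjusted p 0.245). In LAC the difference was -0.79 (adjusted p 0.343 by edgeR), and without LAC_213 it was -1.90 (adjusted p 0.0151). At ID6 the lowest, median and highest values were 3.84, 6.43 and 13.5 CPM, all above ID4 (1.09, adjusted p 0.115).

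A few other genes of the BMP and SMAD arm were called lower in LAC, at ID2 or at ID4. Of 22 listed, 21 were tested. At LAC against NUL 1 rose and 3 fell (median of the 21 log2 fold changes -0.18), and at ID2 and at ID4 against NUL 2 fell each (medians -0.12 and -0.12). The shares of all genes called in these comparisons were 11.2%, 3.24% and 4.25%. Atoh8, a transcription factor gene activated by BMP signalling in liver, fell in LAC from 26.3 to 39.9 CPM in NUL to 10.8 to 14.8 CPM (-1.30, SE 0.17, adjusted p 2.02e-05 by edgeR) and rose at ID2 (0.71, adjusted p 0.0074). Smad6, an inhibitory SMAD gene that BMP signals induce, fell in LAC (-0.55, adjusted p 0.0135 by edgeR), a call lost without LAC_200 (adjusted p 0.106). Bmp2, the other endothelial ligand of hepcidin control, fell in LAC (-0.67, adjusted p 0.00113 by edgeR) and rose at ID2 (0.58, adjusted p 0.00507). Of the 8 sinusoidal endothelial markers, 2 were called lower in LAC and 5 higher from LAC to ID2, and their part in the Bmp2 values was not tested. Furin, a protease that cuts hemojuvelin, rose in LAC (0.32, adjusted p 0.036 by edgeR), which was lost without LAC_240 (adjusted p 0.301).

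Smad9, which encodes a receptor-regulated SMAD, was lower at ID2 and at ID4. It gave 4.94 to 7.48 CPM in NUL, 1.35 to 3.52 CPM at ID2 and 1.16 to 2.44 CPM at ID4. The changes were -1.48 at ID2 (SE 0.30, adjusted p 0.00652 by edgeR; 0.0657 without ID2_39) and -1.73 at ID4 (SE 0.28, adjusted p 0.000596). It rose again at ID6 (1.23, adjusted p 0.0045 by edgeR). Hjv, the hemojuvelin gene for the hepatocyte BMP co-receptor, fell between ID4 and ID6, from 63.0 to 70.2 CPM to 29.45 to 55.8 CPM (-0.57, adjusted p 0.00373 by edgeR). It rose at ID8 to 74.6 to 82.6 CPM (0.79, adjusted p 0.00139 by edgeR). Atoh8 at ID2 against NUL and Smad6 at ID4 against NUL were called with adjusted p of 0.0441 each, and were lost when some single libraries were left out (largest adjusted p 0.208 and 0.17).

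Against NUL, edgeR called 0 of the 21 at ID6, ID8 and REG, where it called 1.08%, 0.499% and 0.0852% of all genes, and DESeq2 called 0 in each. At an unadjusted p under 0.05 there were 2, 5 and 0, against 11.9%, 12.8% and 7.17% of all genes. Between ID4 and ID6, 2 rose and 1 fell (median 0.13, with 8.53% of all genes called), Smad5 being the other that rose. Between ID6 and ID8, 1 rose and 1 fell (4.12% of all genes were called), the latter Acvr2a. Tmprss6 and Hfe, which dampen and promote hepcidin signalling, were not called in LAC (0.14, adjusted p 0.369, and 0.26, adjusted p 0.0964, by edgeR). Bmp2, Furin, Smad5, Acvr2a, Tmprss6 and Hfe are named here after their values were seen.

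**Figure D3:**
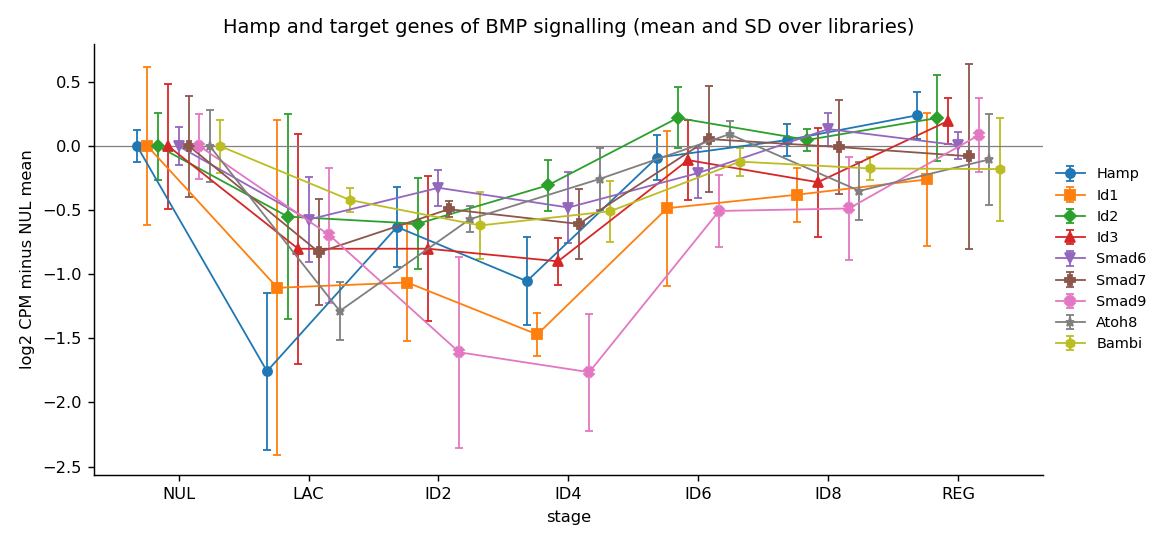
Log2 CPM of Hamp, Id1, Id2, Id3, Smad6, Smad7, Smad9, Atoh8 and Bambi, as the difference from the NUL mean, by stage; markers are means over libraries and bars the SD. The genes beside Hamp were picked for the plot as known BMP targets with results known; of them edgeR called Atoh8 and Smad6 in LAC, Smad9 and Atoh8 at ID2, and Smad9 and Smad6 at ID4 against NUL, and none of the others.

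Several genes listed for the interleukin 6 and STAT3 arm rose at ID4 against NUL, where Hamp was called downward and Stat3 was not called. Of 12 listed genes 11 were tested, all but Il6 itself. At LAC against NUL, 1 rose (Il6ra) and 2 fell (Lcn2 and Creb3l3), with a median of -0.38. At ID4 against NUL 5 rose (Saa1, Saa2, Lcn2, Il6ra and Inhbb) and none fell, with a median of 0.35. The rest of the tested genes, Stat3 among them (0.23, adjusted p 0.318 by edgeR), were not called at ID4. The shares of all genes called were 11.2% and 4.25%. Between ID4 and ID6 Saa1, Saa2, Lcn2 and Stat3 fell (4 of 11, against 8.53% of all genes, median -0.40). Inhbb was still called higher than NUL at ID6 (1.46, adjusted p 0.0428 by edgeR; 0.153 without NUL_227). Il6ra, Creb3l3 and Inhbb are named after their values were seen. The calls of Il6ra at LAC and at ID4, of Creb3l3 at LAC and of Inhbb at ID4 were lost without LAC_240 (0.192), NUL_221 (0.109), LAC_213 (0.133) and NUL_227 (0.081) respectively, as adjusted p by edgeR.

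Saa1 and Saa2, acute-phase apolipoprotein genes, spread widely at ID4. Saa1 gave 9.08 to 88.5 CPM in NUL, 4.40 to 5.40 CPM in LAC and 58.6 to 1242 CPM at ID4. Its change at ID4 against NUL was 4.19 (SE 0.86, adjusted p 0.00717 by edgeR), with the lowest ID4 library below the highest NUL one, and was lost when only these groups were fitted (adjusted p 0.153). Saa1 and Saa2 are near-identical copies, so the division of reads between them is uncertain. Lcn2, which encodes an iron-binding siderophore carrier, gave 4.96 to 38.5 CPM in NUL, 1.86 to 2.03 CPM in LAC and 29.5 to 165 CPM at ID4. Its change was 2.59 at ID4 (adjusted p 0.0456 by edgeR; 0.15 without ID4_13) and -2.86 in LAC (adjusted p 0.0393; 0.205 without NUL_221). Stat3 rose from LAC to ID2, from 82.3 to 107 CPM to 127 to 205 CPM (0.82, adjusted p 0.000267 by edgeR). From LAC to ID2 Saa1, Saa2, Lcn2 and Stat3 rose (4 of 11, against 16.1% of all genes, median 0.82), the Saa1 and Saa2 calls being lost without ID2_39 (adjusted p 0.194 and 0.146 by edgeR). Hamp was called higher in the same comparison. Kupffer cell markers, 8 genes of the liver's resident macrophages, summed to 622 to 684 CPM at ID4 against 365 to 468 CPM in NUL, and their part was not tested.

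Transferrin receptor 1, encoded by Tfrc (ENSMUSG00000022797), takes up iron-loaded transferrin. Tfrc rose in lactation to a fold of 2.49. In NUL it gave 29.4, 35.2, 45.4 and 55.9 CPM. In LAC it gave 87.6, 96.3 and 127 CPM, all above every library of every other stage. The log2 fold change was 1.32 (SE 0.32, adjusted p 0.00941 by edgeR). LAC_240, the highest library, decided the call: without it the change was 1.15 (adjusted p 0.0526), and the joint test gave an adjusted p of 0.0963 in place of 0.0119.

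After weaning Tfrc gave 40.4, 61.6 and 73.0 CPM at ID2 and 33.2, 34.3, 37.2 and 49.6 CPM at ID4. The step from LAC to ID2 did not pass the test (-0.83, SE 0.34, adjusted p 0.109 by edgeR), although the libraries did not overlap. The values were 40.6 to 62.8 CPM at ID6, 28.6 to 64.1 CPM at ID8 and 24.4 to 61.0 CPM in REG. In the order of means, LAC was the one stage that did not overlap its neighbour.

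Tfrc is also abundant in red cell precursors, so the 9 erythroid markers were summed. They gave 338 to 715 CPM in NUL, 771 to 1018 CPM in LAC, 414 to 1194 CPM at ID2, 409 to 1031 CPM at ID4 and 454 to 642 CPM in REG. They gave 55.9 to 268 CPM at ID6 and 22.9 to 37.3 CPM at ID8. Of these markers, edgeR called Hba-a1, Hba-a2, Hbb-bs and Hbb-bt lower than NUL at both stages, and Slc4a1 at ID6. Epor, Klf1 and Alas2 were called at neither (1.08% and 0.499% of all genes were called). The ranges of Tfrc at ID6 and ID8 overlapped those of NUL and REG. The part of red cell RNA in these Tfrc values was not tested. In LAC against NUL edgeR called 0 of the 8 erythroid markers tested (0 at an unadjusted p under 0.05, median 0.69); the part of red cell RNA in the LAC value of Tfrc was not tested.

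Tfr2 (ENSMUSG00000029716), transferrin receptor 2, is a hepatocyte sensor of iron-loaded transferrin. It gave 351 to 441 CPM in NUL and 368 to 403 CPM in LAC, with a difference of -0.07 (95% interval -0.29 to 0.15). It gave 389, 475 and 546 CPM at ID2 and 385, 423, 476 and 518 CPM at ID4. At ID6 the lowest, median and highest values were 333, 340 and 388 CPM, with 1 ID6 library above the lowest ID4 one. The fall between ID4 and ID6 was -0.35 on the log2 scale (SE 0.09, adjusted p 0.0183 by edgeR). It was lost without ID4_211 (adjusted p 0.0899) or ID4_13 (adjusted p 0.0676), and on log2 TPM (adjusted p up to 0.0864). The joint test of Tfr2 gave an adjusted p of 0.0151 by edgeR, and 0.057 on log2(TPM + 1) by limma. ID8 gave 332 to 425 CPM and REG 348 to 382 CPM, overlapping the NUL range.

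Trf (ENSMUSG00000032554), transferrin itself, is a secreted hepatocyte protein. It gave 22189, 24159, 26450 and 29384 CPM in NUL, 30935, 33434 and 33597 CPM in LAC, and 30683, 33161, 34473 and 36316 CPM at ID4. Both groups lay above all NUL libraries. The differences were 0.35 in LAC (SE 0.13, adjusted p 0.0729 by edgeR) and 0.40 at ID4 (SE 0.12, adjusted p 0.0534), neither of them called; without NUL_227 both were called (adjusted p 0.0413 and 0.0402). The joint test called Trf (adjusted p 0.0157 by edgeR). The ID2, ID6 and ID8 libraries (27681 to 32579, 25529 to 38578 and 24815 to 30054 CPM) overlapped NUL. REG, with 21903 to 27207 CPM, had the lowest mean.

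**Figure D4:**
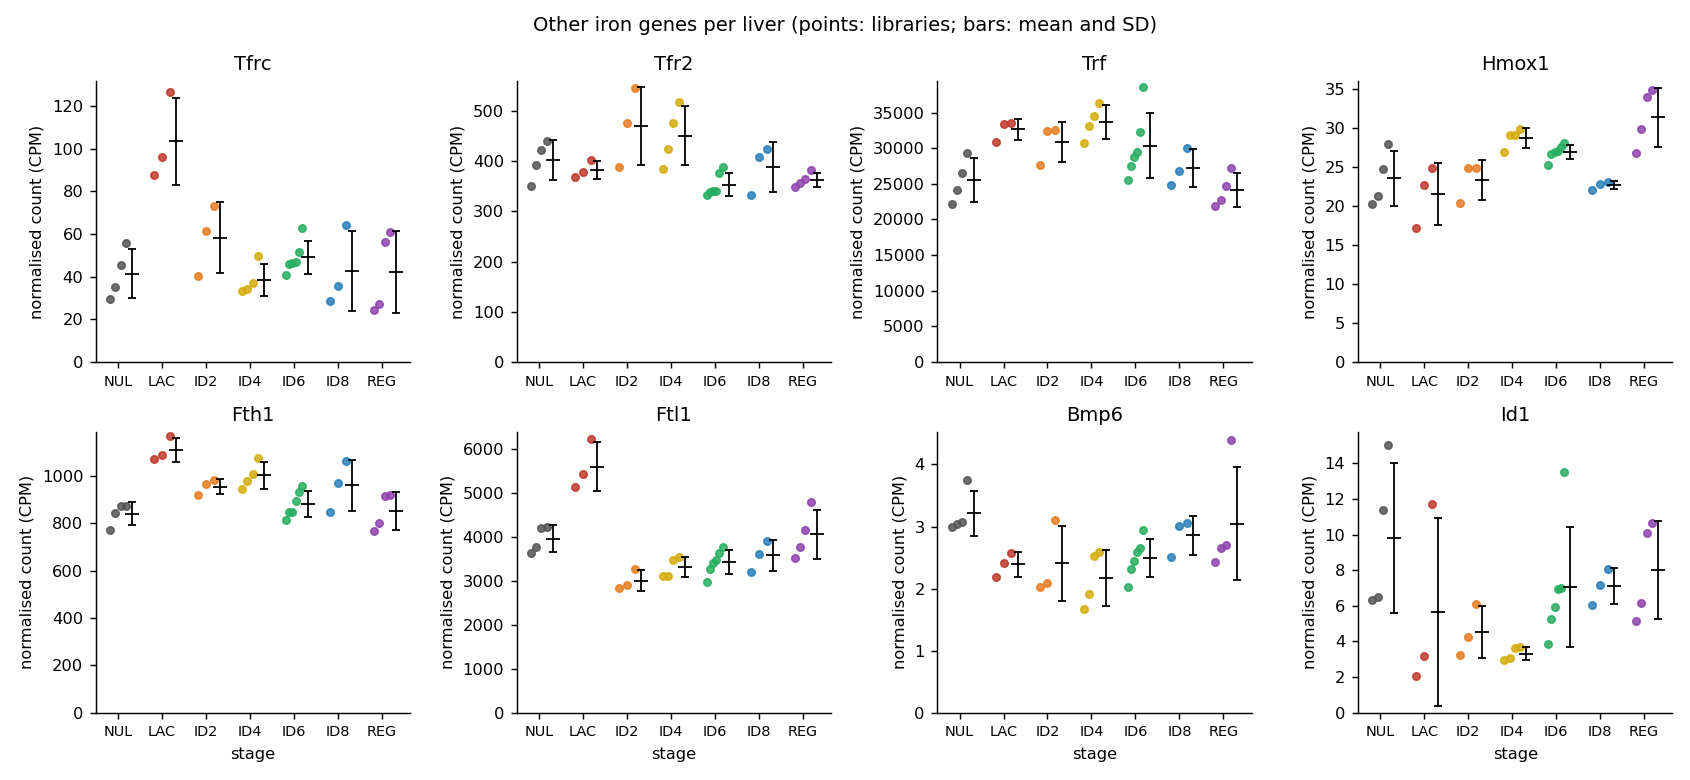
Normalised counts (CPM) of the 8 further genes at the 7 stages, 1 panel a gene with its own scale; points are libraries, sorted by value within a stage, and bars are the mean and SD. The LAC libraries of Tfrc (87.6 to 127 CPM) and of Ftl1 (5134 to 6213 CPM) lie above all libraries of the other stages.

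Ferritin stores iron in a shell of heavy and light chains, encoded by Fth1 (ENSMUSG00000024661) and Ftl1 (ENSMUSG00000050708). Both transcripts rose in lactation. Fth1 gave 770, 841, 873 and 873 CPM in NUL and 1072, 1086 and 1166 CPM in LAC. The groups did not overlap, and the difference of 0.40 on the log2 scale (SE 0.09, adjusted p 0.00425 by edgeR) stayed called without any single library. Fth1 then gave 917 to 981 CPM at ID2, 943 to 1074 CPM at ID4, 815 to 957 CPM at ID6, 846 to 1062 CPM at ID8 and 765 to 921 CPM in REG. Its ID2 and ID4 libraries lay above all NUL libraries without being called (adjusted p 0.301 and 0.0831 by edgeR).

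Ftl1 moved further and fell below its starting level. In NUL it gave 3623, 3772, 4205 and 4223 CPM. In LAC it gave 5134, 5413 and 6213 CPM, higher by 0.50 on the log2 scale (SE 0.11, adjusted p 0.00354 by edgeR). At ID2 it gave 2839, 2897 and 3268 CPM, which was -0.90 from LAC (SE 0.12, adjusted p 1.63e-05 by edgeR) and -0.40 from NUL (SE 0.11, adjusted p 0.046). The first 2 changes stayed called without any single library.

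The fall of Ftl1 below NUL at ID2 was less firm: it was called in 1 of 7 fits that left out a library, with an adjusted p of up to 0.195 without ID2_39, and in 4 of 9 other settings. At ID4 Ftl1 gave 3113, 3115, 3474 and 3534 CPM, still below all NUL libraries (-0.26, adjusted p 0.162 by edgeR). The ID6, ID8 and REG ranges (2973 to 3759, 3201 to 3908 and 3524 to 4789 CPM) overlapped NUL. Counts of Ftl1 and of Trf were fractional in all 27 libraries, as arises when reads are shared with other loci (a count within 1e-06 of a whole number was taken as whole), while those of Fth1, Tfrc, Tfr2, Hmox1, Bmp6 and Id1 were whole.

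Of the genes printed above with an iron-responsive element, Slc40a1 also differed in lactation. Slc40a1 encodes ferroportin, the exporter that hepcidin removes. It gave 226.98 to 318 CPM in NUL, 129 to 179 CPM in LAC, 209.4 to 229 CPM at ID2 and 247 to 295 CPM at ID4. The fall in LAC was -0.77 (SE 0.11, adjusted p 6.08e-05 by edgeR) and the rise at ID2 was 0.54 (adjusted p 0.00327). Liver macrophages express Slc40a1 strongly, and the summed Kupffer cell markers were 246 to 352 CPM in LAC against 365 to 468 CPM in NUL. Adgre1, Vsig4, Timd4, Csf1r and Clec4f were called lower in LAC (-0.74 to -0.43, with 11.2% of all genes called). Cd5l, C6 and Marco were not. The sum was 344 to 420 CPM at ID2, where Adgre1, Cd5l, Vsig4 and Timd4 were called higher than in LAC (16.1% of all genes). The part of these cells in the Slc40a1 values was not tested.

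Of the 13 listed iron transporters, reductases and ferroxidases, all tested, 2 fell in LAC against NUL (11.2% of all genes were called, median -0.10): Slc40a1 and Steap4. Steap4, a metalloreductase gene, gave 70.6 to 112 CPM in NUL and 51.2 to 57.2 CPM in LAC (-0.69, adjusted p 0.00736 by edgeR), and it rose at ID2 (0.91, adjusted p 0.00112). From LAC to ID2, 2 rose (Slc40a1 and Steap4) and 2 fell (Slc11a2 and Slc25a37), with a median of -0.03 and 16.1% of all genes called. Slc11a2, the DMT1 importer, gave 33.2 to 39.2 CPM in LAC and 26.0 to 30.1 CPM at ID2 (-0.40, adjusted p 0.015 by edgeR; 0.0797 without ID2_31). At ID4 against NUL 1 of 13 rose (4.25% of all genes were called), Steap3, a ferrireductase gene of the endosome (0.60, adjusted p 0.00458 by edgeR). Between ID4 and ID6 2 rose and 2 fell (8.53% of all genes were called). Between ID6 and ID8, with 4.12% of all genes called, Slc11a2 and Slc40a1 fell (-0.43, adjusted p 0.0142, and -0.40, adjusted p 0.0316, by edgeR). Kupffer cell markers summed to 502 to 799 CPM at ID6 and 421.5 to 540.4 CPM at ID8, with 4 of 8 called lower, and their part in the fall of Slc40a1 was not tested. The calls between ID6 and ID8 were lost without ID8_101b (0.118) and ID8_14 (0.124) respectively. Slc25a37, which encodes the mitochondrial carrier mitoferrin 1, is named after its value was seen.

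Among 9 listed genes of iron sensing and ferritin turnover, 8 were tested. In LAC against NUL 1 rose (11.2% of all genes were called, median 0.01): Aco1, which encodes iron regulatory protein 1, a cytosolic aconitase when it holds an iron-sulfur cluster. Aco1 gave 217 to 256 CPM in NUL and 322 to 341 CPM in LAC (0.49, SE 0.09, adjusted p 0.000671 by edgeR). From LAC to ID2, Epas1, Aco1, Fbxl5 and Ncoa4 fell (4 of 8, against 16.1% of all genes, median -0.18). Limma on log2 TPM called 0 of the 8 in that comparison. The 4 falls ran from -0.27 (Fbxl5, adjusted p 0.0308 by edgeR) to -0.40 (Epas1, adjusted p 0.00691). Each was lost without some single library, Aco1 without any of the 6. Against NUL, Fbxl5 was lower at ID2 (-0.28, adjusted p 0.0495 by edgeR) and Epas1 at ID4 (-0.34, adjusted p 0.0203). Between ID4 and ID6, Fbxl5 rose (0.30, adjusted p 0.00786 by edgeR) and Pcbp2 fell (-0.25, adjusted p 0.0478). The shares of all genes called in these comparisons were 3.24%, 4.25% and 8.53%. Pcbp2 is named after its value was seen. Epas1 encodes the hypoxia factor HIF-2 alpha, Fbxl5 a ubiquitin ligase subunit that removes iron regulatory proteins, and Ncoa4 the receptor that takes ferritin to the lysosome.

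Heme oxygenase 1, encoded by Hmox1 (ENSMUSG00000005413), frees iron from heme. Hmox1 differed among stages in the joint test (adjusted p 0.00203 by edgeR), and edgeR called none of the 11 comparisons. DESeq2 called REG against ID8 (adjusted p 0.0339), as did limma on log2(TPM + 1) (adjusted p 0.035), which also called ID8 against ID6 (adjusted p 0.0351). It gave 20.2, 21.3, 24.8 and 28.0 CPM in NUL, and 17.2, 22.7 and 24.9 CPM in LAC. At ID2 it gave 20.4, 24.8 and 24.9 CPM, and at ID4 26.9, 29.1, 29.2 and 29.9 CPM. The lowest, median and highest ID6 values were 25.3, 27.03 and 28.1 CPM. It gave 22.1, 22.9 and 23.1 CPM at ID8 and 26.8, 29.9, 34.0 and 34.9 CPM in REG. REG lay above all ID8 libraries and had the highest mean, at 0.41 over NUL (SE 0.10, adjusted p 0.136 by edgeR) and 0.47 over ID8 (SE 0.11, adjusted p 0.135). Without NUL_220 the difference between REG and NUL was 0.51 (adjusted p 0.0429 by edgeR).

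Of 18 listed genes of heme clearance and the NRF2 response, an antioxidant programme that includes Hmox1 among its targets, 17 were tested. In LAC against NUL 4 rose and none fell (median 0.003, with 11.2% of all genes called). Srxn1, the sulfiredoxin gene, gave 39.4 to 43.6 CPM in NUL and 56.4 to 68.2 CPM in LAC (0.64, SE 0.09, adjusted p 2.17e-05 by edgeR). Txnrd1, the thioredoxin reductase 1 gene, gave 109 to 121 CPM in NUL and 151 to 161 CPM in LAC (0.43, adjusted p 0.000308 by edgeR). Both fell at ID2 (-0.53, adjusted p 0.000317, and -0.56, adjusted p 3.16e-05, by edgeR). The other 2, named after their values were seen, were Nfe2l2, the gene of NRF2, and Slc48a1, a heme transporter gene. Their calls were lost without LAC_213 (adjusted p 0.193) and LAC_200 (adjusted p 0.399). Hmox1 itself did not move with them in LAC (-0.13, 95% interval -0.35 to 0.10).

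At ID4 against NUL 4 genes of that list rose and none fell (median 0.10, with 4.25% of all genes called). Hpx, the gene of hemopexin, which scavenges heme in plasma, gave 3268 to 4693 CPM in NUL and 6309 to 11094 CPM at ID4 (1.21, SE 0.22, adjusted p 0.00175 by edgeR). Hp, the haptoglobin gene, rose by 1.26 (adjusted p 0.0172 by edgeR), a call lost without ID4_13 (0.0641). Mafg, which encodes a small MAF partner of NRF2, rose by 0.35 (adjusted p 0.0472 by edgeR) and kept the call in 1 of 8 fits that left out a library. The macrophage gene Cd163, the haptoglobin receptor, rose by 0.41 (adjusted p 0.0364 by edgeR), also kept in 1 of 8, while the Kupffer cell marker sum was higher in ID4 as given above. Hp and Cd163 are named after their values were seen. Against NUL edgeR called 0 of the 17 at ID6, ID8 and REG, where it called 1.08%, 0.499% and 0.0852% of all genes, and DESeq2 called 0 in each. At an unadjusted p under 0.05 there were 3, 2 and 3, against 11.9%, 12.8% and 7.17% of all genes.

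Genes of iron-sulfur cluster assembly, which builds iron cofactors in mitochondria, were called by edgeR in 2 of the 11 comparisons, at shares near those of all genes (11.2% and 16.1%). DESeq2 also called 1 in ID2 against NUL, 1 in ID6 against ID4 and 2 in ID8 against ID6, and limma 1 in ID6 against ID4. Of 11 genes, all tested, 1 rose in LAC against NUL: Glrx5, a glutaredoxin gene, gave 69.0 to 79.9 CPM in NUL and 91.7 to 107 CPM in LAC (0.39, adjusted p 0.00541 by edgeR; 0.254 on log2 TPM). The median of the list was 0.16. From LAC to ID2 Glrx5 fell and Hscb, a cochaperone gene, rose (-0.35, adjusted p 0.0141, and 0.62, adjusted p 0.047, by edgeR), both lost without LAC_213 (0.0823 and 0.209). Bola3 and Nfu1, of late cluster transfer, were called in the joint test (adjusted p 0.0191 and 0.0445 by edgeR) and in no single comparison by that tool.

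**Figure D5:**
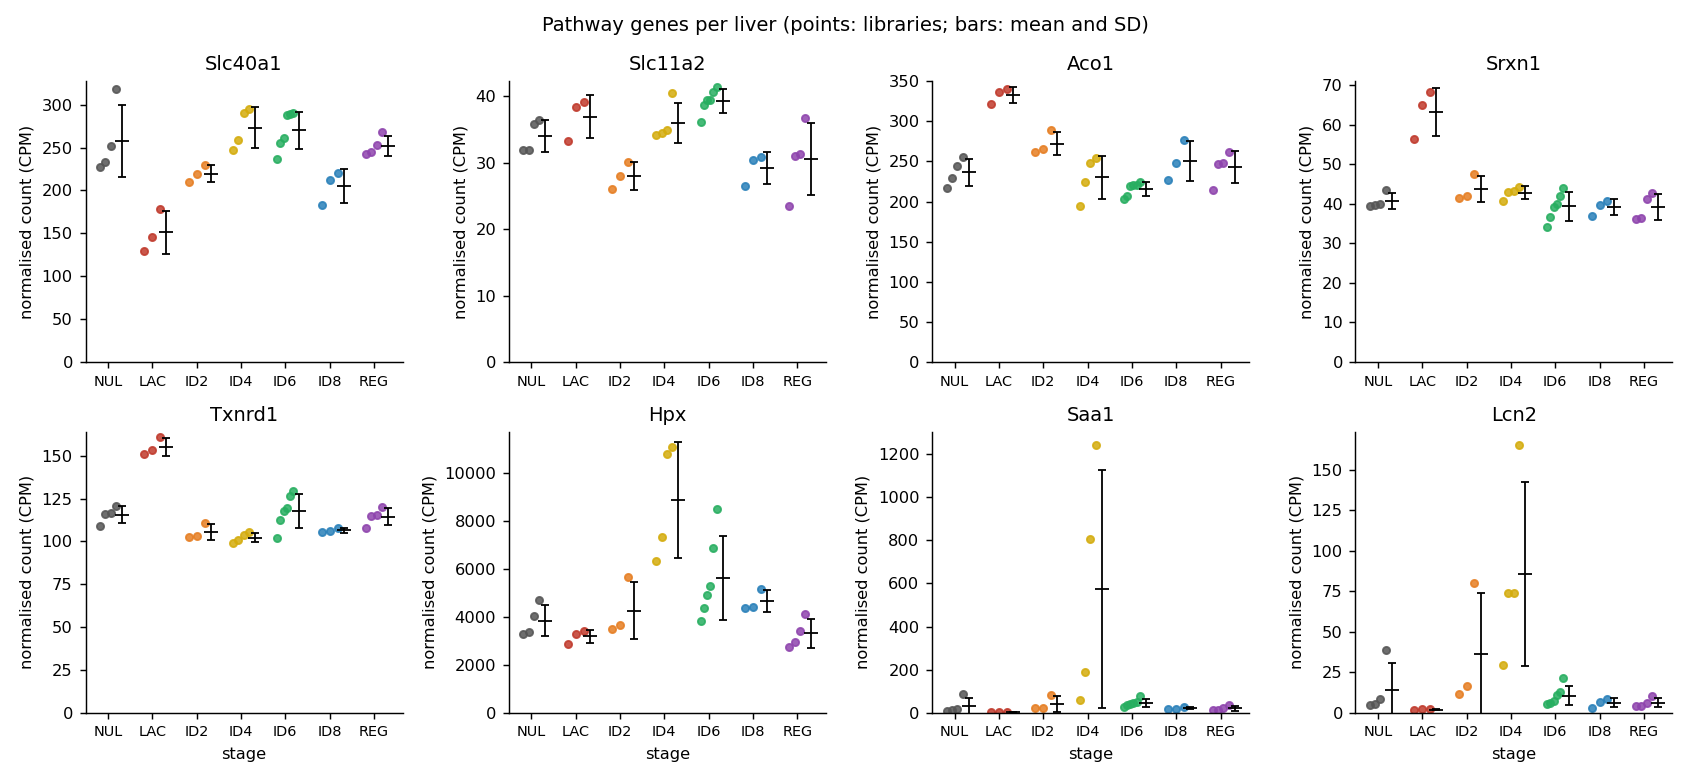
Normalised counts (CPM) of 8 genes of the iron, NRF2 and acute-phase lists at the 7 stages, 1 panel a gene with its own scale; points are libraries, sorted by value within a stage, and bars are the mean and SD, cut at 0. Aco1, Srxn1 and Txnrd1 are highest in LAC and Slc40a1 lowest, whereas Hpx, Saa1 and Lcn2 have their highest libraries at ID4.

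Finally, the genes whose log2 CPM ran most like a member's were listed over the 27 libraries, among 10533 genes that reached an average of 1 or more on that scale and had a symbol that is not a placeholder. Libraries share their stage and their depth, so these values are descriptions. Most like Hamp were Ces1e, a carboxylesterase gene (Pearson r 0.765, Spearman rho 0.769), Stard8 (0.758, 0.617) and Id3, a paralogue of Id1 (0.754, 0.659). Most like Id1 were Id3 (r 0.896, rho 0.864), Id2 (0.799, 0.765) and Smad7, an inhibitory SMAD gene (0.757, 0.73). Most like Tfrc were Dhx29 (r 0.852, rho 0.817), Wfs1 (0.825, 0.811) and Scd2, a fatty acid desaturase gene (0.816, 0.718). Ces1e, for example, gave 96.1 to 134 CPM in LAC, 146 to 163 CPM in NUL and 170 to 226.9 CPM in REG.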

How the data were processed

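Expected counts per gene are the authors' estimates, deposited per library in RSEM's table layout per the file headers; TPM, the length-scaled value, comes from the same deposited tables. The submitters' processing notes name STAR 2.6.1a, RSEM 1.3.1, mm10 and GRCm38; annotation release, trimming and strand use are not given in the sources used here. Overlapping or antisense reads therefore cannot be separated. Per the labels, Trizol was used for extraction and a NEBNext Ultra kit for library making.

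Expected counts were rounded and fitted with edgeR 4.0.16 (R 4.3.3): filterByExpr, TMM, robust quasi-likelihood, all 27 libraries, 7 groups, 11 two-sided comparisons and a joint test, Benjamini-Hochberg over 16428 genes. SE was derived from the fitted change and its F statistic. DESeq2 1.42.0 and limma 3.58.1 on log2(TPM + 1) and log2(TPM + 0.1) were alternatives. Symbols came from GENCODE M21 (51633 of 51826 identifiers found). The closest pair of libraries in a group differed by a chi-square of 41.3 per gene, far above sampling noise. No pair therefore looked like 1 library sequenced again, and each library counted as 1 replicate. The value cannot tell separate animals from separate preparations of 1 liver. In simulated data for LAC against NUL over 16428 genes, 66% of genes changed 2-fold and 83% changed 4-fold were called, and 0.0431% of unchanged ones. The simulation changed 100 genes by each fold, a smaller share than the 11.2% called in the real comparison. Its shares called therefore need not hold for these data.

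The members and gene lists were chosen with earlier results of these data known. All members are described; up to 4 genes per list are named by smallest joint adjusted p, others only where stated. Likeness was Pearson r of log2 CPM. Promoters are from RefSeq; for 3 members no promoter entry was used.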

Additional observations from a re-analysis of the deposited data

Results flagged for a closer look

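In a group of 4 to 10 libraries, a value was singled out where its gap to the nearest other library exceeded Dixon's critical share of the range. Of 44 groups looked at, 5 had such a value, and chance gives about 5% of groups. In NUL, Hamp2 stood at 341.7 CPM in NUL_220 against 107.5 to 132.7 CPM in the other libraries, and the Hamp2 share of hepcidin TPM was 20.34% there against 8.386% to 10.37%. Bmp6 stood at 3.754 CPM in NUL_227 against 2.987 to 3.076 CPM, and at 4.392 CPM in REG_239 against 2.436 to 2.701 CPM. Id1 stood at 13.52 CPM in ID6_209 against 3.844 to 7.011 CPM.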

How the results depend on the processing

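No paired analysis was possible because no library number occurs in more than 1 group. No direction of a called member change reversed under the 9 other settings or without any single library. The joint count stayed within 1.5 times of 8, and the LAC against NUL count of 4. The ID2 against NUL count of 1 became 0 with RLE size factors, without the filter, and with title number or sequencing runs as a covariate, 3 with DESeq2 and 2 with log2(TPM + 1) and log2(TPM + 0.1); leaving out 1 library gave 0 to 1. The ID4 against NUL count of 1 became 5 with DESeq2, 3 with log2(TPM + 1) and log2(TPM + 0.1), 0 with Hamp and Hamp2 summed and 2 with only these groups; leaving out 1 library gave 1 to 3. DESeq2 gave 1 for ID8 against NUL, REG against NUL and REG against ID8, where edgeR gave 0. Log2(TPM + 1) and log2(TPM + 0.1) gave 1 for REG against NUL, ID6 against ID4 (main count 2), ID8 against ID6 and REG against ID8. Only these groups gave 1 for ID2 against LAC. Leaving out 1 library gave 0 to 1 for ID6 against NUL and ID8 against NUL, 0 to 2 for REG against NUL, in each case through NUL_220, and 1 to 2 for ID6 against ID4. The cause of these moves was not tested. Bmp6 had 103 to 321 counts per library.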
